A study of Mus musculus with 4 samples.

Results

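Transcripts of the 4 Id genes, Id1 to Id4, and of 6 genes of bone morphogenetic protein (BMP) signalling, Smad6, Smad7, Bmp2, Bmp4, Bmpr1a and Bambi, were measured by RNA sequencing in cultured mouse hepatocytes and in biliary cells derived from hepatocytes. The genes were chosen by symbol, and all 10 were found among the 24493 gene symbols of the deposited table. The 4 libraries were from cells of hepatocyte origin on a C57BL/6 background, untreated, and from clones 15C7 and 19H5. Biliary cells made from hepatocytes were grown in 2D culture (Bil_2D) and hepatocytes in 3D culture (Hep_3D), and each group had 1 library of each clone (n = 2). Culture format and cell state changed together, so their parts in any difference cannot be told apart. The labels give neither the age of the mice nor how many animals the clones came from.

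BMP ligands are secreted proteins that bind paired type I and type II receptor kinases. The receptors phosphorylate SMAD1, SMAD5 and SMAD9, which enter the nucleus with SMAD4 and switch on target genes. Id1, Id2 and Id3 are classic targets, and so are Smad6 and Smad7, whose products block the receptors and close a feedback loop. Id proteins lack a DNA binding region and pair with E proteins, a class of basic helix-loop-helix factors, which keeps these off DNA. In liver the BMP pathway is known best for driving hepcidin, the hormone of iron balance, through the co-receptor hemojuvelin.

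Levels are TPM, length-corrected shares of each library that sum to 1000000, so the sequencing depth and the counting error of each value are unknown. The 50 most abundant genes of each library took 22.4% and 24.8% of all TPM in Bil_2D and 46.6% and 48.4% in Hep_3D, which lowers the TPM of other genes in Hep_3D. Values are therefore also given on a size-factor scale, in which each library was divided by its median-of-ratios size factor, a value set by its typical gene. Over the 12336 genes tested, the median log2 fold change (Hep_3D minus Bil_2D) was -0.73 in TPM and -0.02 after size-factor scaling. Fold changes are on the log2(value + 1) scale, which understates changes of low genes, and "rose" and "fell" refer to an adjusted p under 0.05 in limma in TPM, except where the size-factor scale is named. The summed level of 6 hepatocyte markers (Alb, Ttr, Apoa1, Hnf4a, Cyp2c29 and Serpina1a) was 279 to 1831 TPM in Bil_2D and 47286 to 48850 TPM in Hep_3D. Of the 6 biliary markers, Krt19, Krt7, Tspan8 and Sox9 were higher in both Bil_2D libraries than in either Hep_3D library. Spp1 had the opposite order, at 4176 and 6092 TPM in Bil_2D and 13093 and 9284 TPM in Hep_3D, and Epcam stayed under 3 TPM in all 4. The summed level of all 6, led by Spp1, was 5741 and 9307 TPM in Bil_2D and 13136 and 9434 TPM in Hep_3D.

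Id1, Id2, Id3 and the inhibitory SMAD genes Smad6 and Smad7 were lower in the hepatocyte cultures, on both scales. Bmp4 fell in TPM, Bmpr1a and Bambi did not pass the test, and Id4 and Bmp2 were too low to be tested. Each of the 8 genes tested had at least 1 TPM in all 4 libraries. The 6 lower and 0 higher genes stand beside 51.9% of all genes tested that fell and 6.80% that rose. At an unadjusted p under 0.05, 7 of the 8 were lower and 0 were higher. On the size-factor scale 5 of the 8 were lower and 0 higher, where 9.54% of all genes were lower and 11.9% higher. With clone as a replicate block 7 of the 8 were lower, beside 58.1% of all genes. On the size-factor scale the count rested on all 4 libraries: in limma 0 of the 8 passed without Bil_2D replicate 1, 0 without Bil_2D replicate 2 (5 at an unadjusted p under 0.05 each time), 2 without Hep_3D replicate 1 and 1 when Hep_3D replicate 2 was dropped. The 8 genes had a median log2 fold change of -2.88 in TPM and -2.11 after size-factor scaling. Both Hep_3D libraries lay below both Bil_2D libraries for Id1, Id2, Id3, Smad6, Smad7 and Bmp4 on both scales. That order was seen in 71.9% of all genes tested on the TPM scale and 34.7% on the other. Bmp2 had it too, but it was not tested and its values were near or under 1 TPM. Bmpr1a lay below in TPM and above on the size-factor scale. With 2 libraries against 2, an exact two-sided permutation test of one gene cannot go below p = 0.333. These are bulk libraries, so fewer cells that express a gene and less RNA per cell cannot be told apart.

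**Figure D1:**
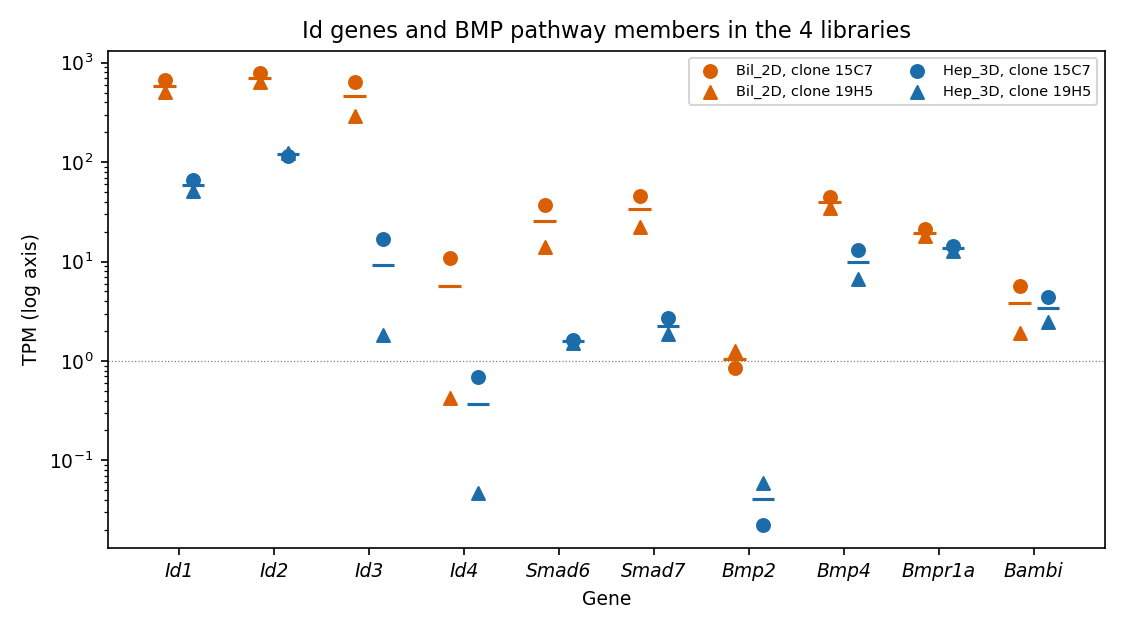
TPM (log axis) of the 10 genes in each library, with Bil_2D in orange, Hep_3D in blue, circles for clone 15C7, triangles for clone 19H5, short bars for group means and a dotted line at 1 TPM. The Hep_3D points of Id1, at 66.8 and 51.1 TPM, lie under the Bil_2D points at 665 and 505 TPM, while the points of Bambi overlap.

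The promoters of 6 of the 10 genes were in the RefSeq promoter table, those of Id2, Id3, Id4, Smad6, Bmp4 and Bmpr1a, and were searched for 2 motifs that SMAD proteins are known to bind, GGCGCC and GTCTAGAC. Each motif reads the same on both strands, and they do not overlap. The 250 bases before the start of Id2 and Id3, which both fell, are shown 5′ to 3′ on the strand of the gene (GRCm38.p6), with GGCGCC in capitals. Id2 lies on the minus strand at chr12:25096093-25096342 and Id3 on the plus strand at chr4:136143572-136143821. The 30 bases around the promoter start listed for Smad6, on the minus strand at chr9:64022045-64022074, are shown because they hold GTCTAGAC, in capitals.
Id2: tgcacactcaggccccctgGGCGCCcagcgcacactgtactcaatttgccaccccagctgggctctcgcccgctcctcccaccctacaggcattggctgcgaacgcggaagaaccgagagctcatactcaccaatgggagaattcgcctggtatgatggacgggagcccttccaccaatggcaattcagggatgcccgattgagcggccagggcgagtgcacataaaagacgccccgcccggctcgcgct
Id3: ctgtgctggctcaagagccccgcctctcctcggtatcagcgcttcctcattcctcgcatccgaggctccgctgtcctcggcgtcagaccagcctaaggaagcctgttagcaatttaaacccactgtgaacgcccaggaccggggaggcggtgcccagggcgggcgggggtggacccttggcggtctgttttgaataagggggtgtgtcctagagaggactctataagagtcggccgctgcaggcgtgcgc
Smad6: gccgccaaagtGTCTAGACtggcatatgat
GGCGCC was present once in Id2, 231 bases before the start, and also in Id4 and Bmpr1a, and 9.59% of the 32851 promoters in the table held it within the same 250 bases. It was not in the 250 bases of Id3, Smad6 or Bmp4. GTCTAGAC spanned the promoter start listed for Smad6, with 4 bases on each side. That start lies inside the gene span given below, which ends at 64022085, so it is not the outermost start. Of all promoters, 0.213% held GTCTAGAC in the 300 bases from 250 before to 50 after the start. For Bmpr1a the 250 bases, at chr14:34502547-34502796 on the minus strand, lie within the gene span given below, which ends at 34503336. Of the genes with GGCGCC, Id2 fell, Bmpr1a did not pass the test and Id4 was not tested. Id3, Smad6 and Bmp4, which lack it in their 250 bases, fell in TPM. Whether either motif has a part in these changes was not tested. A match of letters is a description of the sequence and shows no binding.

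Id1, which is induced by BMP in many cell types (chromosome 2, 152736251 to 152737410), stood at 665 and 505 TPM in Bil_2D replicates 1 (clone 15C7) and 2 (clone 19H5), and at 66.8 and 51.1 TPM in Hep_3D. The groups were far apart and clone 15C7 was the higher in both. The group means were 585 ± 113 and 58.9 ± 11.1 TPM (SD, n = 2), a ratio of 9.93, and the log2 fold change was -3.29 (SE 0.22, adjusted p = 0.00407 in limma). On the size-factor scale it was -2.48 (adjusted p = 0.00648). The fall was nearly equal in the clones, -3.30 in 15C7 and -3.28 in 19H5. Among all 24493 symbols, Id1 ranked at the 99.0 and 98.8 percentile in Bil_2D and at 93.9 and 92.4 in Hep_3D, a measure that needs no scaling.

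Id2, an inhibitor of E proteins that also acts in lymphoid cells (chromosome 12, 25093799 to 25096092), had the highest level of the 4 Id genes in every library. It stood at 782 and 635 TPM in Bil_2D replicates 1 and 2 and at 115 and 124 TPM in Hep_3D. The Hep_3D libraries were close to each other, with clone 19H5 slightly above 15C7. The log2 fold change was -2.55 (SE 0.16, adjusted p = 0.00364 in limma) and -1.74 on the size-factor scale (adjusted p = 0.00794).

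Id3, whose product overlaps in function with that of Id1 (chromosome 4, 136143822 to 136145392), showed the largest fold change of the 8 genes and, in Hep_3D, the widest ratio between clones. It stood at 634 and 293 TPM in Bil_2D replicates 1 and 2, and at 16.7 and 1.81 TPM in Hep_3D. The groups did not overlap, and clone 15C7 was 2.17 times clone 19H5 in Bil_2D and 9.20 times in Hep_3D. The log2 fold change was -5.94, with a 95% interval from -8.61 to -3.26, and -5.20 on the size-factor scale (adjusted p = 0.0352 in limma). Of 12336 genes tested, 5 had a log2 fold change as low as that of Id3 or lower, Id3 included. Without Bil_2D replicate 1 the call was lost (adjusted p = 0.0637), as it was without Bil_2D replicate 2 (0.0522).

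Id4, a family member best known from the nervous system (chromosome 13, 48261116 to 48266028), did not reach 1 TPM in enough libraries (2) to be tested. It stood at 10.9 and 0.420 TPM in Bil_2D replicates 1 and 2 and at 0.685 and 0.0471 TPM in Hep_3D. The groups overlapped, since the order followed the clone as much as the state: 15C7 exceeded 19H5 by 25.9 times in Bil_2D and 14.5 times in Hep_3D. Fitted without the filter, its log2 fold change was -1.63 (adjusted p = 0.348 in limma), with a 95% interval from -4.83 to 1.57. The annotated antisense gene A330033J07Rik, which overlaps Id4, was at 0.0288 TPM or listed at 0, and whether the counting used strand is not given in the sources used here.

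The makeup of the Id pool differed between the states as well as its size. The 4 Id genes summed to 2092 and 1433 TPM in Bil_2D and to 199 and 177 TPM in Hep_3D. Id3 made up 30.3% and 20.4% of that sum in Bil_2D, but 8.37% and 1.02% in Hep_3D. The share of Id2 went the other way, from 37.4% and 44.3% in Bil_2D to 57.7% and 70.1% in Hep_3D. Id1 held a similar share throughout, at 31.8% and 35.2% in Bil_2D and 33.5% and 28.8% in Hep_3D. The ratio of Id3 to Id1 within a library, which no scaling alters, was 0.954 and 0.580 in Bil_2D against 0.250 and 0.0355 in Hep_3D. By level the order in Bil_2D was Id2, Id1, Id3 and Id4 in replicate 1 and replicate 2 alike. The spread of Id3 between clones in Bil_2D (463 ± 241 TPM) reached both neighbours, Id1 at 585 ± 113 and Id2 at 708 ± 104 TPM (SD, n = 2). In Hep_3D, Id2 at 120 ± 6.54 TPM stood clear of Id1 at 58.9 ± 11.1, and Id1 of Id3 at 9.24 ± 10.5 TPM (SD, n = 2).

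**Figure D2:**
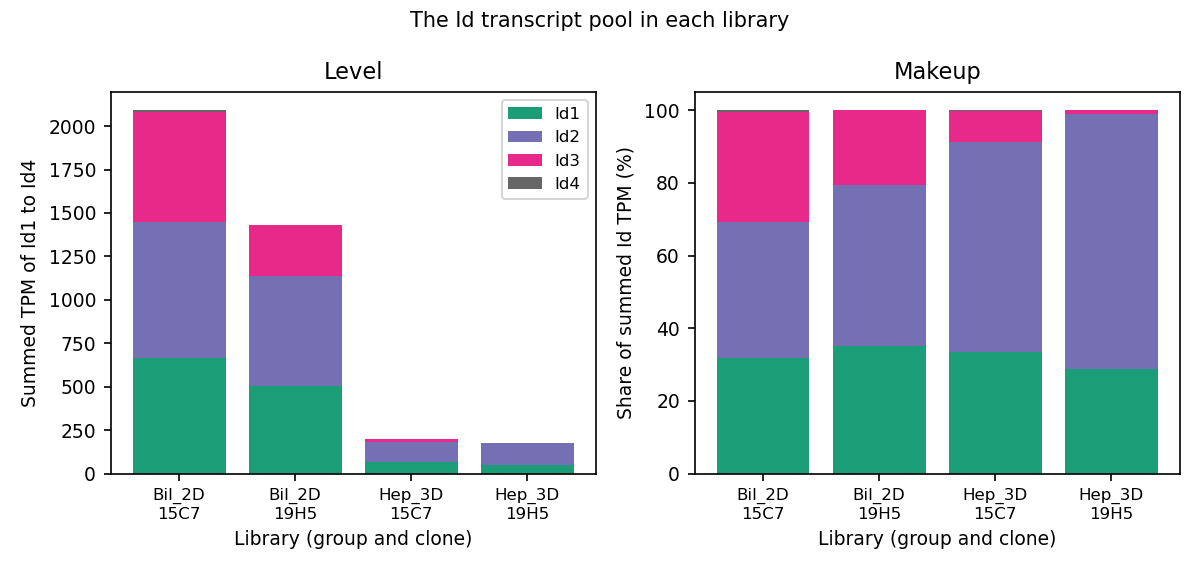
Summed TPM of Id1 to Id4 in each library (left) and the share of each gene in that sum in percent (right), as stacked bars by group and clone. The sum is 2092 and 1433 TPM in Bil_2D and 199 and 177 TPM in Hep_3D, and the Id3 part shrinks from 30.3% and 20.4% to 8.37% and 1.02%.

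Smad6 and Smad7, the feedback inhibitors, fell by similar amounts. Smad6, which mainly blocks BMP receptors (chromosome 9, 63953076 to 64022085), stood at 37.2 and 13.9 TPM in Bil_2D replicates 1 and 2 and at 1.63 and 1.53 TPM in Hep_3D. The clones differed in Bil_2D, by 2.68 times, and hardly in Hep_3D. The log2 fold change was -3.21 (SE 0.49, adjusted p = 0.00960 in limma), and -2.56 on the size-factor scale (adjusted p = 0.0317). The call was lost without Hep_3D replicate 1 (adjusted p = 0.0511) or Hep_3D replicate 2 (0.0551), at fold changes of -3.24 and -3.18. Smad7, which blocks receptors of both BMP and TGF-beta, stood at 45.2 and 22.4 TPM in Bil_2D and at 2.67 and 1.86 TPM in Hep_3D. Its log2 fold change was -3.34 (SE 0.39, adjusted p = 0.00654 in limma), and -2.65 on the size-factor scale (adjusted p = 0.0182). The ratio of Smad7 to Smad6 within a library was 1.22 and 1.61 in Bil_2D and 1.64 and 1.21 in Hep_3D, so the groups overlapped in this ratio.

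Of the ligands, Bmp4, which many epithelia and stromal cells secrete (chromosome 14, 46383525 to 46390669), stood at 45.1 and 34.2 TPM in Bil_2D replicates 1 and 2 and at 13.1 and 6.75 TPM in Hep_3D. Both Hep_3D libraries were below both Bil_2D libraries. The log2 fold change was -1.95 (SE 0.35, adjusted p = 0.0130 in limma). On the size-factor scale it was -1.18 and did not pass (adjusted p = 0.0750), but it did there with clone as a replicate block. After quantile normalization the adjusted p was 0.0540, and on the TPM scale it was 0.0731 without Bil_2D replicate 1 and 0.0567 when Bil_2D replicate 2 was dropped. The predicted gene Gm15217, which overlaps Bmp4 on the other strand, was at 0.880 TPM or less in every library. Bmp2, a close relative of Bmp4 (chromosome 2, 133552159 to 133562896), was under the filter, at 0.851 and 1.25 TPM in Bil_2D and 0.0223 and 0.0598 TPM in Hep_3D. Fitted without the filter, among 18606 genes, it had a log2 fold change of -0.97 (adjusted p = 0.0159 in limma). Its values lay near or under the added 1, so this fit adds nothing to them.

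Neither Bmpr1a nor Bambi passed the test on either scale without the clone block. Bmpr1a, a type I receptor kinase for BMP (chromosome 14, 34411061 to 34503336), stood at 21.2 and 17.96 TPM in Bil_2D replicates 1 and 2 and at 14.3 and 12.8 TPM in Hep_3D. Its log2 fold change was -0.50 on the TPM scale (adjusted p = 0.0621 in limma; 0.0401 with the clone block) and 0.27 on the size-factor scale (adjusted p = 0.263), so the direction turned with the scaling. The 95% interval on the size-factor scale ran from -0.14 to 0.68. Bambi encodes a receptor-like membrane protein without a kinase that dampens TGF-beta family signalling. It stood at 5.71 and 1.90 TPM in Bil_2D and at 4.39 and 2.48 TPM in Hep_3D. The groups overlapped, and the log2 fold change was -0.03 on the TPM scale (95% interval from -1.38 to 1.33) and 0.60 on the size-factor scale. Reads of Bambi could be split with its pseudogene Bambi-ps1, which stood at 0.554 and 1.90 TPM in Bil_2D and 0.648 and 1.18 TPM in Hep_3D, so the value of Bambi is uncertain. The ratio of Id1 to Bmpr1a within a library was 31.4 and 28.1 in Bil_2D and 4.67 and 3.998 in Hep_3D.

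**Figure D3:**
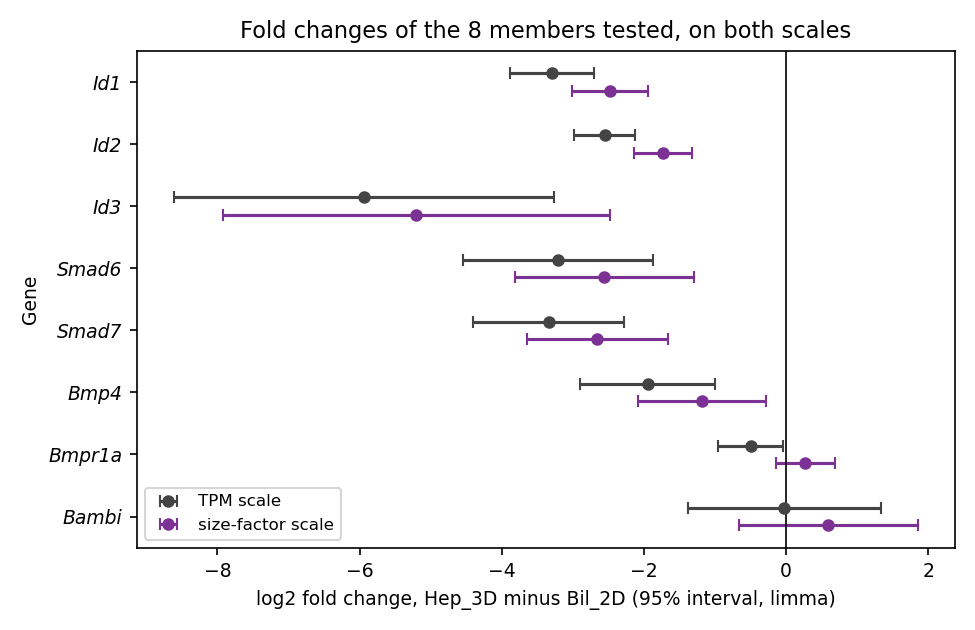
Log2 fold changes, Hep_3D minus Bil_2D, of the 8 genes tested, with 95% intervals from limma, on the TPM scale (grey) and the size-factor scale (purple). The intervals of Id1, Id2, Id3, Smad6, Smad7 and Bmp4 lie below 0 on both scales, and those of Bambi span 0 on both.

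In TPM, Bambi was the 1 gene of the 10 that moved in opposite directions in the 2 clones. On the size-factor scale it moved upward in both, by 0.37 and 0.82. The share of all genes whose clones moved the same way was not computed. In TPM, both Hep_3D libraries lay below both Bil_2D libraries for 71.9% of all genes tested, so a shared direction is a description. Clone 15C7 was above clone 19H5 in both states for 8 of the 10 genes, and for 7 of the 8 tested, an order held by 40.0% of all genes tested. The other two, Id2 and Bmp2, were higher in 19H5 in Hep_3D, and Bmp2 in both states. This clone order is given as a description.

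The rest of the pathway, with partners of Id proteins, was read from 62 listed symbols. Of these, 61 were in the table (a single gene is listed under both Hfe2 and Hjv) and 41 passed the filter. The 62 include 5 genes outside the pathway, the E protein genes Tcf3, Tcf4 and Tcf12 with Cdkn1a and Cdkn2a. They are counted among the other pathway genes here and below. All 5 were tested, and 4 of them were called lower on the TPM scale. Of the 41, 19 were called lower and 3 higher on the TPM scale, where 51.9% and 6.80% of all genes were. On the size-factor scale 3 were lower and 4 higher, beside 9.54% and 11.9% of all genes. Their median log2 fold changes, -0.92 and -0.22, were close to those of all genes tested, -0.73 and -0.02. The medians differed by role. They were lowest for the other BMP targets (-2.05 and -1.54) and highest for receptors and co-receptors (-0.31 and 0.37). Only 28 had at least 1 TPM in all 4 libraries, so some were tested because of their level in a single group, and these counts are a description. Of the genes called, Bmp8a, Nbl1, Chrd, Hfe2 and Hey1 fell under 1 TPM in their lower group. The calls of these genes add nothing to their values. Of the 22 called genes, Smurf1, Tob1, Fkbp1a, Twsg1 and Runx2 kept their calls in all 4 leave-outs, in which 1 library was dropped. Hfe2 did too, but it passed the filter through Hep_3D alone, so this adds nothing to its values.

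**Figure D4:**
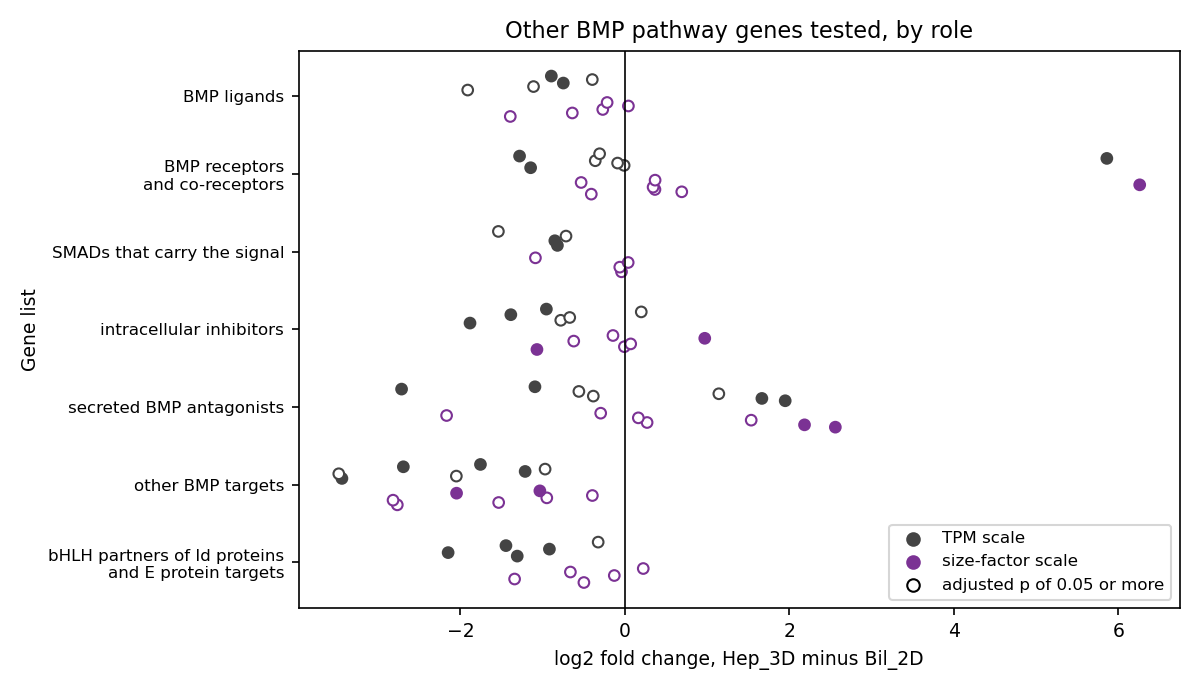
Log2 fold changes, Hep_3D minus Bil_2D, of the 41 other pathway genes tested, 1 point a gene, by role, on the TPM scale (grey) and the size-factor scale (purple), with open points for an adjusted p of 0.05 or more. The bottom role holds the E protein genes, Cdkn1a and Cdkn2a, which lie outside the pathway. The point at the far right is Hfe2, which was listed at 0 in both Bil_2D libraries, so its position depends on the added 1.

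Of 5 other ligand genes tested, 2 fell and 0 rose on the TPM scale, beside 51.9% and 6.80% of all genes. The 2 were Bmp8a and Gdf7 (named after their values were seen, since both stayed under 10 TPM), and 0 passed on the size-factor scale. Both lost their call in each leave-out. Bmp6, the ligand that liver endothelium is known to supply to hepatocytes, stood at 23.4 and 1.86 TPM in Bil_2D replicates 1 and 2 and at 3.12 and 0.193 TPM in Hep_3D. Its level followed the clone, and its adjusted p in limma was 0.0259 with clone as a replicate block and 0.238 without it.

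Among receptors and co-receptors, 2 of 7 were called lower and 1 higher on the TPM scale, beside 51.9% and 6.80% of all genes. Hfe2, which encodes hemojuvelin, the BMP co-receptor that drives hepcidin in hepatocytes, stood at 64.2 and 50.7 TPM in Hep_3D replicates 1 and 2 and was listed at 0 in both Bil_2D libraries. It is the 1 called higher, but it passed the filter through Hep_3D alone, so its call adds nothing to these values. Neo1, the receptor neogenin that binds hemojuvelin, fell from 18.5 ± 0.574 to 7.04 ± 0.862 TPM (SD, n = 2), and Acvr1, a type I receptor, from 14.9 ± 0.923 to 6.24 ± 1.32 TPM (SD, n = 2). Size-factor scaling ended both calls (adjusted p = 0.101 and 0.250). The adjusted p of Neo1 and Acvr1 was 0.0530 and 0.0661 without Bil_2D replicate 1 and 0.0519 and 0.0758 when Bil_2D replicate 2 was dropped.

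Of the 4 SMAD genes that carry the signal, 2 fell in TPM, Smad1 and Smad4, and 0 rose, beside 51.9% and 6.80% of all genes. After size-factor scaling 0 passed. Smad1 stood at 30.9 and 25.1 TPM in Bil_2D and at 17.4 and 13.5 TPM in Hep_3D, with a log2 fold change of -0.82 on the TPM scale and -0.04 on the size-factor scale (adjusted p = 0.0287 and 0.890 in limma). Smad4 had -0.85 and -0.06 (adjusted p = 0.0244 and 0.829). Smad1 lost its TPM-scale call in all 4 leave-outs (adjusted p from 0.0537 to 0.134) and Smad4 in all but that without Hep_3D replicate 1 (0.0408). Smad5 had a log2 fold change of -0.72 (adjusted p = 0.170, and 0.0207 with the clone block). Smad9, itself a BMP target, stood at 6.55 and 1.57 TPM in Bil_2D and at 0.345 and 0.709 TPM in Hep_3D. Its log2 fold change was -1.54 in TPM (adjusted p = 0.0800 in limma) and -1.09 after size-factor scaling (0.215). Smad9 passed the filter through Bil_2D alone, so its fit and the order of its groups add nothing to its values.

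Of 6 intracellular inhibitors, 3 fell and 0 rose on the TPM scale, beside 51.9% and 6.80% of all genes. On the size-factor scale 1 fell and 1 rose, beside 9.54% and 11.9% of all genes. Fkbp1a, whose product holds type I receptors inactive, fell on both, from 479 ± 3.14 to 129 ± 2.28 TPM (SD, n = 2; log2 fold changes -1.88 and -1.07, adjusted p = 0.00358 and 0.0139 in limma). Smurf1, a ubiquitin ligase that removes BMP SMADs, and Tob1, which binds them, fell on the TPM scale with log2 fold changes of -1.39 and -0.96, but not on the size-factor scale (adjusted p = 0.0565 and 0.413). Smurf2 (named after its values were seen) had a log2 fold change of 0.20 on the TPM scale and rose by 0.97 on the size-factor scale (adjusted p = 0.0305).

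Of 7 secreted antagonists tested, 2 fell and 2 rose on the TPM scale, beside 51.9% and 6.80% of all genes. Bmper, whose product binds BMP4, rose from 2.08 and 1.23 TPM in Bil_2D replicates 1 and 2 to 12.1 and 6.80 TPM in Hep_3D (log2 fold change 1.95, adjusted p = 0.0132 in limma, and 2.56 on the size-factor scale, adjusted p = 0.0165). Its TPM-scale call was lost without Bil_2D replicate 1 (0.0528) or Bil_2D replicate 2 (0.0684). Chrd, which encodes chordin (named after its values were seen), was the other that rose, at 1.65 and 0.342 TPM in Bil_2D and 3.38 and 7.19 TPM in Hep_3D, and its call was lost in the fit with the clone block (adjusted p = 0.0698) and in each leave-out. Nbl1 fell from 18.6 and 5.63 TPM to 1.03 and 0.483 TPM (adjusted p = 0.0201), with an adjusted p of 0.0716 without Hep_3D replicate 1, 0.0994 without Hep_3D replicate 2 and 0.0622 on the size-factor scale. Twsg1, whose product can aid or hinder BMP, fell too (log2 fold change -1.09), but its size-factor value of -0.29 did not pass (adjusted p = 0.170). Chrd and Nbl1 each had a library under 1 TPM in the lower group, so their calls add nothing to their values.

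Of 7 other known BMP targets tested, 4 were called lower and 0 higher in the hepatocyte cultures, beside 51.9% of all genes called lower, a share close to that of the list. The 4 were Atoh8, Msx2, Runx2 and Hey1, and Hey1 (1.94 and 1.10 TPM in Bil_2D, 0.0758 and 0.0678 TPM in Hep_3D) passed the filter through Bil_2D alone, so its call adds nothing to its values. The median log2 fold change of the 7 was -2.05, and after size-factor scaling it was -1.54, with 2 called lower beside 9.54% of all genes. Atoh8, a helix-loop-helix factor induced by BMP6 in liver, stood at 79.4 and 12.4 TPM in Bil_2D replicates 1 and 2 and at 2.60 and 1.54 TPM in Hep_3D (log2 fold change -3.44, adjusted p = 0.0334 in limma). It did not pass without Hep_3D replicate 1 (0.107), without Hep_3D replicate 2 (0.143) or on the size-factor scale (0.0952). Msx2, a homeobox factor, fell from 23.9 and 10.6 TPM to 1.24 and 2.08 TPM (adjusted p = 0.0108, and 0.0575 without Hep_3D replicate 1). Runx2, the bone transcription factor, fell from 17.1 ± 0.0656 to 4.40 ± 1.04 TPM (SD, n = 2; adjusted p = 0.00670), and both passed on the size-factor scale too (adjusted p = 0.0405 and 0.0359).

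Hamp, which encodes hepcidin, differed more between clones than between states. It stood at 1390 and 13.9 TPM in Bil_2D replicates 1 and 2 and at 114 and 0.448 TPM in Hep_3D, so the groups overlapped. Within each clone it was lower in Hep_3D, by a log2 fold change of -3.60 in 15C7 and -3.36 in 19H5. It did not pass without the clone term (adjusted p = 0.375 in limma) and did with the clone block (0.00776). Hfe2 and Hamp thus stood in opposite order between the states within each clone.

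The E protein genes, whose products Id proteins bind, had log2 fold changes of -1.45 (Tcf3), -0.33 (Tcf4) and -0.92 (Tcf12), against -3.29, -2.55 and -5.94 for Id1, Id2 and Id3. Tcf3 stood at 50.3 and 34.3 TPM in Bil_2D replicates 1 and 2 and at 15.3 and 14.01 TPM in Hep_3D, and Tcf12 at 44.3 and 34.2 against 20.6 and 19.6 TPM. Both fell on the TPM scale (adjusted p = 0.0101 and 0.0160 in limma), but not on the size-factor scale (0.0893 and 0.595). Tcf3 lost its TPM-scale call without Hep_3D replicate 2 (0.0562), and Tcf12 in 3 of the 4 leave-outs (0.0635 to 0.0758), all but that without Bil_2D replicate 2. Tcf4 was low, at 1.47 to 3.03 TPM in the 4 libraries (adjusted p = 0.347). The ratio of summed Id to summed E protein TPM was 21.4 and 20.3 in Bil_2D and 5.26 and 5.04 in Hep_3D, a ratio that no scaling alters. The cell cycle inhibitor genes Cdkn1a and Cdkn2a, which E proteins can activate, fell with log2 fold changes of -1.31 and -2.15 (adjusted p = 0.0283 and 0.0198), lost their calls in 3 of the 4 leave-outs each (highest adjusted p 0.126 and 0.0870), and did not pass on the size-factor scale (0.290 and 0.126).

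Genes whose profile over the 4 libraries was nearest to that of an Id gene were ranked by the root mean square difference of centred log2(TPM + 1) values among 7630 genes with a mean of at least 10 TPM. Nearest to Id1 were Trim59, Soat1 and Dlc1, at 0.0690, 0.0830 and 0.0890. Nearest to Id2 were Amotl2 (an angiomotin family gene), Mtap and Tpm4 (a tropomyosin), at 0.0240, 0.0379 and 0.0513, and Amotl2 stood at 216 and 168 TPM in Bil_2D and at 29.97 and 32.7 TPM in Hep_3D. For Id3 the nearest were Cyr61, Dio3 and Hmga1b at 0.689, 0.992 and 1.03. No gene of that abundance was as near to Id3 as others were to Id1 and Id2. The measure includes the size of the fold change, and 5 of 12336 genes tested, Id3 included, had one that low or lower. The wider distance thus adds little to the fold change of Id3. With 4 libraries from 2 groups, such likeness is a description.

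Id genes and Smad6 are also abundant in endothelium, and other cell types could add to these transcripts, so markers of other cells were read in the same libraries. The 8 endothelial markers (Pecam1, Cdh5, Kdr, Tek, Stab2, Lyve1, Emcn and Clec4g) summed to 0.199 to 0.371 TPM in Bil_2D and 0.0594 to 0.0686 TPM in Hep_3D. Of these, Lyve1, Emcn and Clec4g were listed at 0 in all 4 libraries, and 0 of the 8 reached 1 TPM in any. The 8 fibroblast and stellate markers were Col1a1, Col1a2, Col3a1, Pdgfrb, Des, Lrat, Dcn and Acta2. They summed to 1.28 to 4.01 TPM in Bil_2D and 3.52 to 179 TPM in Hep_3D. The high value was Dcn in Hep_3D replicate 1, at 178 TPM. Dcn and Col1a1 were the 2 of the 8 that reached 1 TPM in any library. All but Dcn stayed at 1.17 TPM or less in every library. The 6 macrophage and leukocyte markers summed to 7.21 to 13.5 TPM in Bil_2D and 2.70 to 3.10 TPM in Hep_3D, with Cd68, Csf1r and Lyz2 the 3 that reached 1 TPM and Ptprc at 0.0598 TPM or less. The part of Dcn- or Cd68-expressing cells in the results was not tested.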

How the data were processed

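Libraries of 4 cultures, 2 per group, were built by Novogene, as the extract protocol in the labels says. The authors deposited TPM values per gene symbol. Salmon, DESeq2 and mm10 are listed, with no versions, in the submitters' processing notes. The annotation, and the role of DESeq2, are not given in the sources used here. TPM keeps no depth, so no count model was fitted.

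Sample titles gave the groups. A gene was tested if 2 or more libraries reached 1 TPM (12336 genes). Values were fitted as log2(TPM + 1) with limma 3.58.1 in R 4.3.3 (lmFit, eBayes with a trend, residual degrees of freedom 2, prior 2.29), and p-values received a Benjamini-Hochberg adjustment over the whole set. The labels call the libraries separate clones and say no more of their independence. The 2 libraries of a group are of different clones. P-values without the clone block thus reflect only the spread between these 2 clones, which may include technical spread. Replicate numbers match the clone numbers in the labels, which pairs the libraries. Across genes, the deviations from the group mean correlated at 0.414 between libraries of one clone. The fit was also run on simulated data with planted changes and independent noise, but no clone effect and no planted gap in size factors. That run checked the sign and size of planted changes, and it cannot show how far the calls hold in these data.

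Size factors were medians of ratios over genes that reached 1 TPM in all 4 libraries, and differed by 0.82 log2 units between groups. Other alternatives were quantile normalization, dropping the top 50 genes by mean TPM, pseudocounts of 0.1 and 5, no filter or one of 5 TPM, eBayes without a trend or robust, clone as a replicate block, and leaving out each library, the last 2 also on the size-factor scale. A group left with 1 library was assumed to vary as the other does. The genes described, the pathway and marker lists and the tests were chosen with earlier results of these data known. The rule for named genes took all 10 members, pathway genes that passed with at least 10 TPM in a library, and Hamp, the E protein and the SMAD genes, and the 3 nearest profiles for each Id gene tested. Positions and promoters are RefSeq's (GRCm38.p6, the assembly of mm10), and overlapping genes come from GENCODE (mouse, GRCm38).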

Additional observations from a re-analysis of the deposited data

Results flagged for a closer look

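Bambi was lower in Hep_3D than in Bil_2D in clone 15C7, by a log2 difference of -0.32 on the log2(TPM + 1) scale, and higher in clone 19H5, by 0.27. Each clone gave 1 library per state, so this difference between the clones was not tested. On the size-factor scale the values were 0.37 and 0.82, both upward.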

How the results depend on the processing

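Id1, Id2, Id3, Smad6, Smad7 and Bmp4 kept their direction under every alternative run. With size-factor scaling and 1 library dropped, 0 of the 8 genes passed in limma without either Bil_2D library (5 at an unadjusted p under 0.05 each time), 2 without Hep_3D replicate 1 (Id1 and Id3) and 1 without Hep_3D replicate 2 (Id1). In those fits the adjusted p of Id1 was 0.0580 and 0.0583 without Bil_2D replicates 1 and 2. On the TPM scale 4 to 5 of the 8 passed with a library dropped. With clone as a replicate block 7 of the 8 passed, Bmpr1a being the addition, with 26 other pathway genes (22 unblocked) and 8150 of all genes (7241 unblocked). Block and size factors together gave 6, 10 and 3193. The block ended the call of 2 other pathway genes, Bmp8a (adjusted p = 0.0516) and Chrd, and gave 6 new ones. All genes called numbered 2642 with size factors, 3104 after quantile normalization, 3367 with the top 50 genes dropped, 2627 to 4537 with 1 library dropped, and 340, 188, 818 and 613 with size factors and 1 library dropped (Bil_2D replicates 1 and 2, then Hep_3D). Other pathway genes called numbered 7, 9, 12, 10 to 14 and 1 to 2 in the same order. Bmpr1a turned upward with size factors (0.27, the same with the block, and 0.35, 0.19, 0.22 and 0.32 as libraries were dropped), after quantile normalization (0.18) and with the top 50 genes dropped (0.021). Bambi turned upward in the same settings (0.60, the same with the block, then 1.13, 0.059, 0.28 and 0.91, with 0.50 and 0.43 for the last 2), and with a library dropped on the TPM scale it ran from -0.63 (without Bil_2D replicate 2) to 0.58 (without Bil_2D replicate 1), with 0.29 without Hep_3D replicate 2. The cause of these changes was not tested. The depth of the libraries is unknown, which limits what can be said of Id4 and Bmp2, near or under 1 TPM in most libraries.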
